A study of Mus musculus with 8 samples.

Results

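Mitochondrial ribosomal proteins are represented by 78 of the 16640 genes in the authors' deposited comparison of Huwe1 KO with WT mouse liver. They were chosen by name alone, as every symbol made of Mrpl or Mrps and a number, which gave 49 Mrpl genes of the large subunit and 29 Mrps genes of the small subunit. The comparison rests on bulk RNA sequencing of whole liver from 4 WT mice and 4 mice with a liver-specific Huwe1 KO, all aged 1 year and kept on chow. Huwe1 encodes a HECT-type ubiquitin ligase. The promoter or Cre line behind the deletion, the sex of the mice and any batch are unknown here. The files used here hold 1 normalized value per gene and group, so every level given below comes from the authors per group, and each error is a standard error that the authors' p implies for a log2 fold change.

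Mitochondria carry their own ribosome, which translates the few proteins encoded in mitochondrial DNA, all of them membrane subunits of the respiratory chain and the ATP synthase. The RNA of this ribosome comes from mitochondrial DNA, but every protein in it is encoded in the nucleus, made in the cytosol and imported. Some of these proteins descend from the ribosome of the bacterial ancestor, and others are found only in mitochondria. In liver, a tissue rich in mitochondria, the pathway supplies the catalytic core of oxidative phosphorylation, and defects of single members in people cause inherited mitochondrial disease.

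Huwe1, the targeted gene, had a value of 2666 in WT and 1784 in KO in the authors' deposited table, which is 66.9% of the WT level (log2 fold change -0.58, adjusted p = 0.000425). The deposited values of all genes sum to 17347886 in WT and 17533080 in KO, and the 78 members make up 0.255% of the WT sum and 0.226% of the KO sum. The 10 hepatocyte markers checked summed to 1864027 in WT and 2457047 in KO (7 of 10 above 0, 3 called higher, which were Hnf4a, Serpina1a and Apoa1). Alb alone, which was not called, made up 437495 of the difference of 593021 between these sums. Neutrophil markers summed to 133 in WT and 262 in KO (5 of 6 above 0, 2 called higher, the defining marker Ly6g at 7.52 and 5.02), cholangiocyte markers to 906 and 1629 (5 of 6 above 0, 0 called), lymphocyte markers to 152 and 188 (7 of 8 above 0, 0 called) and macrophage markers to 2297 and 2672 (7 of 8 above 0, 0 called). Markers of sinusoidal endothelium summed to 1971 and 2189 (4 of 7 above 0, 1 called higher) and of stellate cells to 4445 and 4992 (4 of 7 above 0, 0 called). None of the listed markers was at 0. These sums stand beside every result below, and their part in those results was not tested. In bulk tissue, fewer cells of a type and less RNA per cell cannot be told apart.

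The promoters of the members are shown here for the lowest and highest fold changes and for a pair of members that share a start region. RefSeq windows on GRCm38.p6, from 250 bases before to 50 bases after a start, were found for 69 of the 78 members (75 windows) and compared with all 16607 windows of genes in the table. The motifs searched on both strands were those of NRF1 (GCGCA, any base, GCGC), of the ETS family that includes GABPA (CCGGAAG), of YY1 (AAGATGGC), of E-box factors such as MYC (CACGTG), of Sp1 (GGGCGG) and the heat shock element (TTC, GAA and TTC in this order, with any pair of bases between neighbours). Matches of different motifs could overlap. NRF1, GABPA and YY1 are known regulators of nuclear genes for mitochondria. Capitals mark the bases of a match. Mrps22, Mrpl44 and Mrpl16 had the lowest fold changes, Mrpl47 and Mrpl18 the highest, the Mrpl18 window lies at a RefSeq start inside the gene, and the Mrps11 window also covers the opposite-strand start of Mrpl46.
Mrps22 (chr9:98601630-98601929, minus strand): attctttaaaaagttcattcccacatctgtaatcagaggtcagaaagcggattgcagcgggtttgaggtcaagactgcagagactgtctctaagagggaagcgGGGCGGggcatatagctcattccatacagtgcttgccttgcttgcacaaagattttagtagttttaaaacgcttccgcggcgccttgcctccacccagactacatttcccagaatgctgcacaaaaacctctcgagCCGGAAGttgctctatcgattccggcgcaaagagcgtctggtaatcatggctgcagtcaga
Mrpl44 (chr1:79775768-79776067, plus strand): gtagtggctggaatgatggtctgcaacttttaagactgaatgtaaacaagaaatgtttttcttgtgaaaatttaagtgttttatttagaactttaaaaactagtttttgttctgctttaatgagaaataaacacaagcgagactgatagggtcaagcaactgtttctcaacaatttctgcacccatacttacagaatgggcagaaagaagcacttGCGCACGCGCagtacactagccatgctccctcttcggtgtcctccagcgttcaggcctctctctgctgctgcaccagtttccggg
Mrpl16 (chr19:11770165-11770464, plus strand): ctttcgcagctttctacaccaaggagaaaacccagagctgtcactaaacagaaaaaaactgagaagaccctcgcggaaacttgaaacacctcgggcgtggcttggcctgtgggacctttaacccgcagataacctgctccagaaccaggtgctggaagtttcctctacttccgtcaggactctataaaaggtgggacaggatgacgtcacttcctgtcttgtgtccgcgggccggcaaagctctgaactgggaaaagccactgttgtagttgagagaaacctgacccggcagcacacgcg
Mrpl47 (chr3:32736706-32737005, minus strand): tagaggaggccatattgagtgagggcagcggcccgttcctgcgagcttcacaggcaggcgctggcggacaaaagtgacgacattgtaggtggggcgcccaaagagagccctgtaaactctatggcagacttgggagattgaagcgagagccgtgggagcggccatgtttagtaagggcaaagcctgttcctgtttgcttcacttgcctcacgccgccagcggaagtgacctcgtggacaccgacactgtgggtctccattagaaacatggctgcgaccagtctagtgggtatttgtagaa
Mrpl18 (chr17:12916042-12916341, minus strand): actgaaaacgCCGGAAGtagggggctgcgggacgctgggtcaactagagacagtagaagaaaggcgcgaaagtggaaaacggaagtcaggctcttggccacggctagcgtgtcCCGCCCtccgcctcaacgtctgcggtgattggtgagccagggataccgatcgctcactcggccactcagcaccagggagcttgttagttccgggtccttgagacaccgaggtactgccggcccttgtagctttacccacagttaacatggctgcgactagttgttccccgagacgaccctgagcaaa
Mrps11 (chr7:78782881-78783180, plus strand): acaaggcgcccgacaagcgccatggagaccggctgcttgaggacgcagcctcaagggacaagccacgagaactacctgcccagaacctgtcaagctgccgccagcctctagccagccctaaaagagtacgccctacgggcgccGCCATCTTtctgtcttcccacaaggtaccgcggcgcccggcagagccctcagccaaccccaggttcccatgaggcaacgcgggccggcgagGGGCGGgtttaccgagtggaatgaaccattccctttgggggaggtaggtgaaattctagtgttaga

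The Mrps22 window holds an ETS and an Sp1 match, the Mrpl44 window an NRF1 match and the Mrpl18 window an ETS and an Sp1 match, while those of Mrpl16 and Mrpl47 hold none of the letters searched. The Mrps11 window holds a YY1 and an Sp1 match. Over all member windows the ETS letters were present in 34.7%, against 14.1% of all windows. The YY1 letters were present in 16% of member windows against 3.59% of all, and the NRF1 letters in 17.3% against 7.96%. The E-box (9.33% against 8.95%) and the Sp1 letters (52.0% against 55.5%) were about as frequent in members as elsewhere, and the heat shock element was in 0 of 75 member windows against 0.476% of all. The median log2 fold change in the authors' deposited table was -0.15 for the 26 members with the ETS letters and -0.17 for the 43 without. It was -0.21 for the 12 members with the YY1 letters and -0.14 for the 57 without, and -0.21 for the 13 members with the NRF1 letters and -0.15 for the 56 without. A match is a run of letters and not a measured binding site, and these counts carry no test.

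Most mitoribosomal genes lay slightly lower in KO liver, and 8 fell by the authors' test. By the fold changes the authors deposited, 67 of the 78 members lay below 0, which was the case for 46.9% of all genes. Of the members, 8 fell and 0 rose at the authors' adjusted p under 0.05, which is 10.3% of the members called lower against 5.56% of all genes (4.41% of all genes were called higher, and 9.97% in either direction). By DESeq2's deposited unadjusted p under 0.05, 20 members were lower and 1 higher, against 10.8% and 9.65% of all genes. The median log2 fold change of the members was -0.16 in the authors' deposited table, beside 0.02 over all genes. The members are well expressed, and the 6802 genes with a mean value in their range are a closer background: 52% of these lay below 0 and 7.72% were called lower, with a median of -0.01 in the deposited table. The members were measured in the same livers and libraries and are not independent replicates of the comparison, so no p is given for them as a group.

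**Figure D1:**
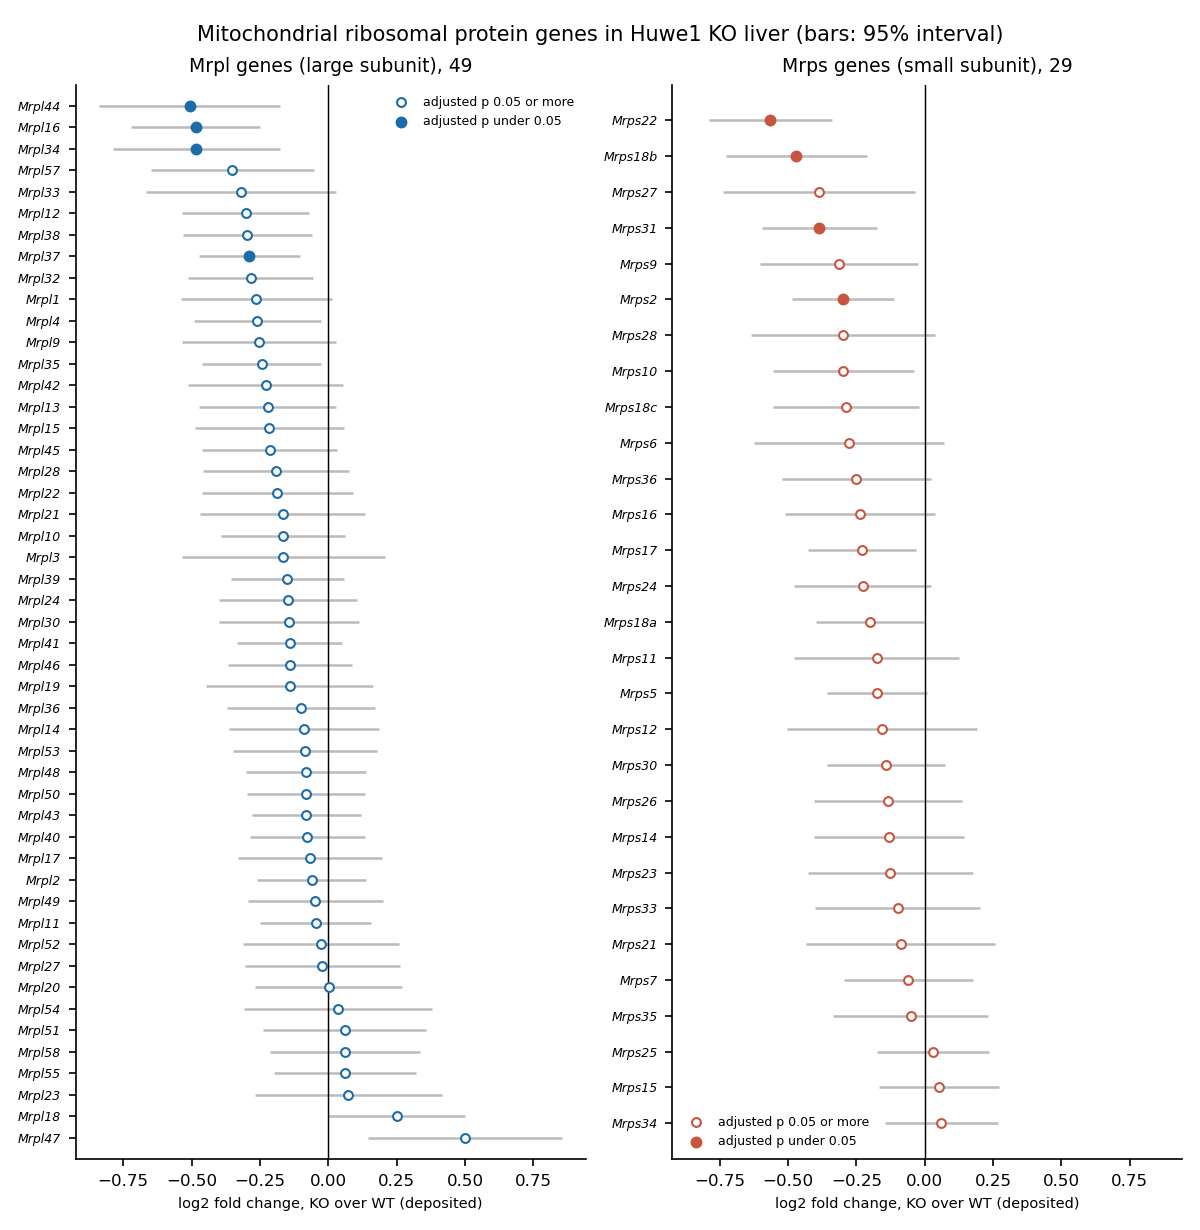
Log2 fold change of KO over WT for the 49 Mrpl and 29 Mrps genes, 1 row per gene; points are the values of the authors' deposited table, bars the 95% interval from the implied standard error, and filled points the 8 genes with an adjusted p under 0.05. The 8 filled points all lie below 0, and 67 of the 78 points do.

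No member moved by as much as 1.5-fold in either direction. The deposited log2 fold changes ran from -0.56 (Mrps22) to 0.50 (Mrpl47), with implied standard errors of 0.093 to 0.19. For 65 of the 78 members the 95% interval excluded a change of 1.5-fold both up and down, and for 12 members it reached a fall of that size. Their deposited values correspond to between 1075 and 13268 normalized reads over the 8 livers together, and all 78 had a mean value of 10 or more. The size of the shift depends on the scaling. With the eighth of genes of highest mean value as reference (their median fold change set to 0, below called the most abundant genes), the members' median was -0.08 and 55 lay below 0. There 4 members fell, which is 5.13% of the members beside 3.76% of all genes, and among all genes the share of calls that were higher went from 44.2% to 65.1%. After a length and level trend was removed (the median fold change of genes alike in length and mean value), the members' median was also -0.08 and 58 lay below 0. There 4 members fell, and their share, 5.13%, was near the 4.94% of all genes, so the larger share of falls among the members did not hold at this setting.

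Small subunit genes had a somewhat lower median than large subunit genes. Among the 49 Mrpl genes 4 fell (8.16%), 0 rose and 41 lay below 0, and the median log2 fold change as deposited was -0.14. Among the 29 Mrps genes 4 fell (13.8%), 0 rose and 26 lay below 0, with a median of -0.20. Of all genes 5.56% were called lower, and 7.72% of those with a mean value in the members' range. The difference between the subunit medians was 0.06, and no test was made of it, as genes of a subunit are not replicates. The standard error of a single member (median 0.13) does not measure the error of this difference. Summed over members, the deposited values of the large subunit went from 29527 in WT to 26808 in KO, a log2 ratio of -0.14. Those of the small subunit went from 14722 to 12894, a log2 ratio of -0.19. The summed levels of both subunits were lower in KO.

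**Figure D2:**
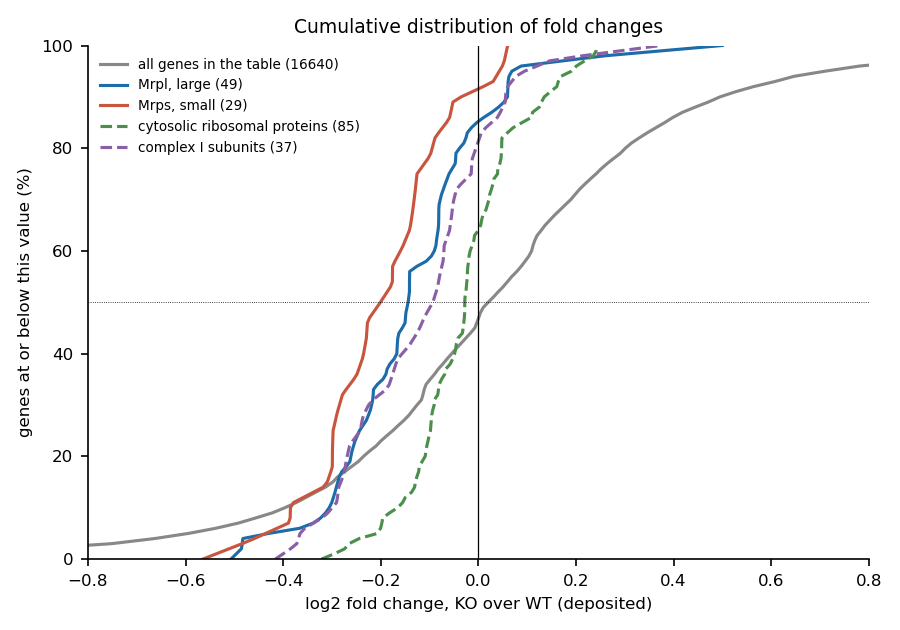
Percentiles of the log2 fold change (horizontal axis) in the authors' deposited table for Mrpl genes, Mrps genes, cytosolic ribosomal proteins, complex I subunits and all 16640 genes; the dotted line marks the median. The Mrps curve lies to the left of the Mrpl curve at the median (-0.20 and -0.14), and that of cytosolic ribosomal proteins lies close to 0 (-0.03, and 0.054 with the most abundant genes as reference).

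The symbol does not always give the subunit. In structures of the mammalian mitoribosome, the proteins of Mrps30 and Mrps18a sit in the large subunit, Mrps18b and Mrps18c sit in the small subunit, and the protein of Mrps36 is known as a subunit of the alpha-ketoglutarate dehydrogenase complex. The table's own cellular component terms place 47 of the 49 Mrpl genes in the large and 26 of the 29 Mrps genes in the small mitochondrial subunit. They count Mrps18a and Mrps36 as small and give Mrps30 neither term. With genes placed by protein position, and with Dap3, Ptcd3, Chchd1, Aurkaip1 and Gadd45gip1 added, whose symbols do not follow the pattern, the large subunit counted 52 genes with 4 lower and a median deposited fold change of -0.14. The small subunit counted 30 genes with 5 lower and a median of -0.20. These calls are 7.69% of the large and 16.7% of the small subunit, beside 5.56% of all genes. Classes follow the systematic protein names, by which Mrps18b and Mrps18a count as mitochondria-specific although they are paralogues of the bacterial S18 family, and the split depends on this placement. Mitochondria-specific proteins of the small subunit, Mrps18b among them, held 4 of those 5 calls among 14 genes (28.6%, median -0.15). The 16 small subunit proteins with a bacterial homologue held 1 (6.25%, median -0.23). In the large subunit, 2 of 30 genes with a bacterial homologue (6.67%, median -0.17) and 2 of 22 mitochondria-specific genes (9.09%, median -0.11) were called lower by the authors' adjusted p. Of these calls, those of Ptcd3, Mrps2, Mrpl44, Mrpl34 and Mrpl37 were lost with the most abundant genes as reference and with the length and level trend removed.

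Small subunit genes were led by Mrps22, which encodes a mitochondria-specific protein of the small subunit and is a disease gene in people. Mrps22 (Entrez ID 64655; chromosome 9, 98588730 to 98601679 in GRCm38) had a value of 336 in WT and 227 in KO in the authors' deposited table, 67.6% of the WT level. The deposited log2 fold change of -0.56 had an implied standard error of 0.11, and its adjusted p, 4.23e-05, was the smallest of any member.

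Mrps18b (chromosome 17, 35910380 to 35916440), a paralogue of the bacterial S18 protein, fell in the deposited values from 933.5 to 674 (log2 fold change -0.47 with implied standard error 0.13, adjusted p = 0.00645). An antisense gene covers 30.5% of its exonic bases in GENCODE, and since it is not stated whether counting used strand, reads of the pair cannot be told apart. The other paralogues did not pass. Mrps18c stood at 317 in WT and 259 in KO (log2 fold change -0.29, adjusted p = 0.19), and Mrps18a at 542 and 472 (log2 fold change -0.20, adjusted p = 0.234), in the authors' deposited table. A gene on the same strand, Gm43511, shares 23.2% of the exonic bases of Mrps18c. All 3 paralogues had values below 0, and their differences from each other were not tested.

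Mrps31 (chromosome 8, 22410449 to 22429669), a further mitochondria-specific protein of the small subunit, fell in the deposited values from 527 to 404 (log2 fold change -0.38 with implied standard error 0.11, adjusted p = 0.00683). Mrps2 (chromosome 2, 28465951 to 28471177), the counterpart of bacterial S2, fell from 794 to 645 (log2 fold change -0.30 with implied standard error 0.095, adjusted p = 0.0228) in the same deposited table. Its fold change was smaller than that of Mrps27, a pentatricopeptide repeat protein, which did not pass (556 and 425, log2 fold change -0.39, adjusted p = 0.182). Mrps27 had an implied standard error of 0.18, about as large as any member, against 0.095 for Mrps2. A transcript on the opposite strand, 6430562O15Rik, shares 24.2% of the exonic bases of Mrps27. Mrps12, a protein of the decoding centre, had deposited values of 456 and 409 (log2 fold change -0.16, adjusted p = 0.742), and Mrps30 had 443 and 402 (log2 fold change -0.14, adjusted p = 0.561). Mrps36, of the dehydrogenase complex, had 265 and 223 in the deposited table (log2 fold change -0.25, adjusted p = 0.309), which lies within the range of the ribosomal members, and it has named pseudogene copies that could share its reads.

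Large subunit genes were led by Mrpl44, whose protein has a ribonuclease III-like fold and which is a cardiomyopathy gene in people. Mrpl44 (Entrez ID 69163; chromosome 1, 79776018 to 79781445 in GRCm38) went from 279 in WT to 196 in KO in the authors' deposited table, a log2 fold change of -0.51 with an implied standard error of 0.17 (adjusted p = 0.0323). Mrpl16 (chromosome 19, 11770415 to 11774956), the counterpart of bacterial L16, fell in the deposited values from 466 to 333 (log2 fold change -0.48 with implied standard error 0.12, adjusted p = 0.00158). Mrpl34 (chromosome 8, 71464926 to 71465753), a very short protein with a bacterial homologue, fell in the deposited values from 618 to 442 (log2 fold change -0.48 with implied standard error 0.16, adjusted p = 0.0249). Mrpl37 (chromosome 4, 107055874 to 107066866), which is mitochondria-specific, fell in the deposited values from 650 to 532 (log2 fold change -0.29 with implied standard error 0.094, adjusted p = 0.0261). The calls of Mrpl44, Mrpl34, Mrpl37 and Mrps2 were lost with the most abundant genes as reference (adjusted p from 0.0781 to 0.155) and after removal of that length and level trend (adjusted p from 0.0804 to 0.192). Those of Mrps22, Mrpl16, Mrps18b and Mrps31 held under these settings.

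Other large subunit proteins of known role lay below 0 without passing. Mrpl12, which forms the flexible stalk that recruits translation factors, had the highest deposited value of all members, 1832 in WT and 1485 in KO (log2 fold change -0.30, adjusted p = 0.0851). Its 95% interval ran from -0.53 to -0.071. Mrpl45, which tethers the ribosome to the inner membrane near the exit of the new protein, stood at 581 and 500.3 as deposited (log2 fold change -0.21, adjusted p = 0.349).

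A small number of members stood above 0, and Mrpl47 stood apart among them. Mrpl47 (Entrez ID 74600; chromosome 3, 32727497 to 32736755), the mitochondrial counterpart of bacterial L29 at the exit of the peptide tunnel, had 150.2 in WT and 212 in KO in the authors' deposited table, 141% of the WT level. Its deposited log2 fold change of 0.50 (implied standard error 0.18) missed the threshold narrowly (adjusted p = 0.0565). It was called higher when p-values were adjusted over the genes with a mean of 10 or more (adjusted p = 0.0431), with the most abundant genes as reference (0.0183) and with the length and level trend removed (0.0383). Exons of Ndufb5 and Actl6a on the opposite strand cover 13.9% and 10.2% of its exonic bases. Both lay below 0 in the deposited table, Ndufb5 with 1480 in WT and 1371 in KO and Actl6a with 300.3 and 246, and how reads of the overlaps were assigned is unknown here.

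Mrpl18 (chromosome 17, 12911345 to 12917787), a homologue of bacterial L18, followed with 746 and 886 as deposited (log2 fold change 0.25, 95% interval from -9.53e-05 to 0.50, adjusted p = 0.244). Exons of Tcp1 on the opposite strand cover 10.1% of the exonic bases of Mrpl18, and how reads of the overlap were assigned is unknown here. The other 9 members above 0 had deposited log2 fold changes of at most 0.07. Mrpl23 stood at 651 and 685, Mrpl55 at 345 and 360 and Mrpl58, a peptidyl-tRNA hydrolase that rescues stalled ribosomes, at 534 and 556 in the deposited table. Mrps34 stood at 666 and 695, but other protein-coding genes share most of its exonic bases (Mapk8ip3 63.4% and Nme3 37.0%), so its value is uncertain. Mrpl23 has a named pseudogene copy. None of these 4 passed (adjusted p from 0.847 to 0.88), and their 95% intervals lay between -0.27 and 0.42.

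The order of the members by level hardly changed between the groups. Per kilobase of the table's gene length, WT levels ran from 45.9 for Mrpl19 to 2005 for Mrpl52, a 43.7-fold range. Mrpl52 (2005 in WT, 1967 in KO), Mrpl12 (1902 and 1542), Mrpl14 (1561 and 1469), Mrps21 (1427 and 1342) and Mrpl42 (1214 and 1036) were the 5 highest in normalized reads per kilobase. Mrpl19 (45.9 and 41.6), Mrps25 (75.2 and 76.8) and Mrpl35 (112 and 94.4) were the 3 lowest on that scale. Mrps25 and Mrpl19 share 69.8% and 36.0% of their exonic bases with a gene on the opposite strand, and their long listed lengths, 6076 and 5016 bases, lower the level per kilobase. Across the 78 members Spearman's rho between the WT and KO levels per kilobase was 0.983. As a description over genes measured in the same libraries, the deposited log2 fold change had a rho of 0.08 with the WT level per kilobase and of -0.08 with gene length. The median WT level per kilobase was 491 for Mrpl genes and 453 for Mrps genes.

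**Figure D3:**
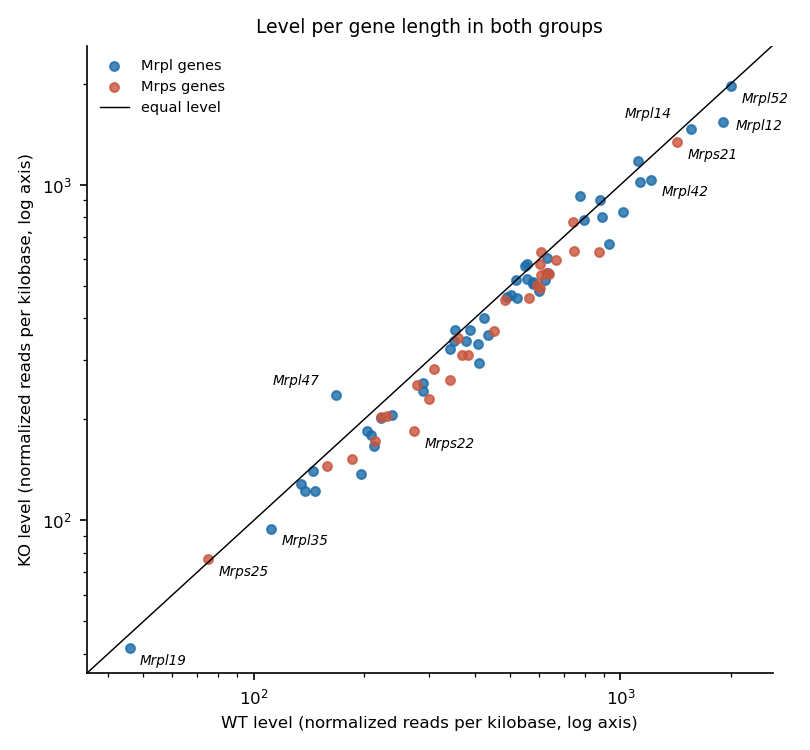
Level per kilobase of gene length of the 78 members in KO (vertical, log axis) against WT (horizontal, log axis), in normalized reads of the authors' deposited table; each point is 1 gene, with 1 group value per axis and no error. Points lie mostly just under the line of equal level, and Mrpl47 (167 in WT, 236 in KO) lies furthest above it.

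Cytosolic ribosomal protein genes, which build the ribosome outside mitochondria, lay close to 0. Of 85 such genes 1 fell (1.18%, beside 5.56% of all genes) and 0 rose by the authors' adjusted p. Of the 85, 54 lay below 0, with a median deposited log2 fold change of -0.03. These values turned with the most abundant genes as reference (0 fell, 2 rose, 28 below 0, median 0.054) and with the length and level trend removed (0 fell, 1 rose, 29 below 0, median 0.043). Several products of the mitoribosome are built into respiratory complex I. Genes for its subunits were taken by symbol alone (Ndufa, b, c, s or v and a digit), which gave 37. Of these 37, 2 fell (5.41%) and 0 rose, with 30 below 0. Their median was -0.09 in the deposited values (-0.012 and -0.00081 under the same settings). The mitoribosomal median was lower than either as deposited (-0.16) and under both settings (-0.08). These differences between lists were not tested. Of 13 mitochondrially encoded proteins, 0 were found under the symbols searched, so these products were not analysed here.

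The other genes of mitochondrial translation mostly lay below 0, with falls on the list of translation factors. This list of 18 genes also holds genes with other roles in translation, Gatb among them. Of the 18, 4 fell by the authors' adjusted p (22.2%, beside 5.56% of all genes) and 0 rose. The list's median deposited fold change was -0.26 on the log2 scale. It was -0.18 with the most abundant genes as reference and -0.25 with the length and level trend removed. Under either setting 3 fell (16.7%, beside 3.76% and 4.94% of all genes). Gfm1, the elongation factor that moves the ribosome along the message, fell from 1388 to 810.4 (log2 fold change -0.78 with implied standard error 0.14, adjusted p = 8.65e-07) in the deposited table. Gatb, part of the enzyme that makes glutaminyl-tRNA in mitochondria, fell from 680.4 to 410.1 (log2 fold change -0.73 with implied standard error 0.14, adjusted p = 8.17e-06) in the deposited table.

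Gfm2 and Mrrf act together to take the ribosome apart after termination. Gfm2 fell from 755 to 519 (adjusted p = 0.00104) and Mrrf from 406 to 289.8 (adjusted p = 0.0259) by the deposited values. The call of Mrrf was lost with the most abundant genes as reference (adjusted p = 0.0797) and after removal of that length and level trend (adjusted p = 0.0823). Tufm, the factor that brings aminoacyl-tRNA to the ribosome, had 1626 and 1446 in the deposited table and did not pass (adjusted p = 0.588).

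Of 17 mitochondrial aminoacyl-tRNA synthetases, which load tRNAs with amino acids, 16 lay below 0 and 1 fell by the authors' adjusted p (5.88%, beside 5.56% of all genes). The median deposited fold change was -0.26 on the log2 scale (-0.18 with the most abundant genes as reference and -0.25 with the length and level trend removed). The synthetase that fell was Wars2, for tryptophan, with 98.4 in WT and 65.2 in KO in the deposited table (adjusted p = 0.0285). Its adjusted p was 0.0696 with the most abundant genes as reference, where 0 synthetases fell. It was 0.00613 with the length and level trend removed, where 3 fell (17.6%, beside 4.94% of all genes). Over genes with a mean of 10 or more, or after centring on the median of all genes, 2 fell. These 2 are 11.8% of the synthetases, beside 8.17% and 6.23% of all genes. At a deposited unadjusted p under 0.05, 9 of the 17 were lower, beside 10.8% of all genes. Of 27 genes that assemble the mitoribosome or modify its RNA, 0 fell and 0 rose by DESeq2's deposited adjusted p. At an unadjusted p under 0.05, 2 of the 27 were lower and 0 higher, beside 10.8% and 9.65% of all genes. Their median was -0.15, and -0.070 with the most abundant genes as reference. It was -0.147 with the length and level trend removed, where 1 fell (3.70%, beside 4.94% of all genes). Among the 5 mitoribosomal proteins with other symbols, Ptcd3, a pentatricopeptide repeat protein of the small subunit, fell in the deposited values from 516 to 423 (log2 fold change -0.29, adjusted p = 0.0352), a call lost with the most abundant genes as reference (adjusted p = 0.183) and after removal of that length and level trend (adjusted p = 0.0785).

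Of 12 genes that maintain or transcribe mitochondrial DNA, 1 fell by the authors' adjusted p (8.33%, beside 5.56% of all genes) and 0 rose. The median deposited log2 fold change was -0.14 (-0.060 with the most abundant genes as reference and -0.19 with the length and level trend removed). Mterf2, a member of the mitochondrial transcription termination factor family, fell from 59.8 to 26.7 (log2 fold change -1.16 with implied standard error 0.24, adjusted p = 7.68e-05) in the deposited table. Its fold change was the lowest of any gene on these lists. Tfam, which packages mitochondrial DNA, had 607 and 529 in the deposited table and did not pass (adjusted p = 0.484).

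Nuclear regulators of mitochondrial genes lay on the other side of 0. Of 9 listed, 8 lay above 0 by the deposited fold changes, with a median of 0.27, but 0 passed by DESeq2's adjusted p. At an unadjusted p under 0.05, 3 were higher and 0 lower, beside 9.65% and 10.8% of all genes. With the most abundant genes as reference 3 of the 9 were called higher, and the median of the 9 was 0.35. Calls of higher over all 16640 genes went from 734 as deposited to 1168 with that reference. With the length and level trend removed 1 of the 9 was called higher, beside 722 of all genes. Nrf1 had 113 and 147 (adjusted p = 0.118), Yy1 559 and 672 (adjusted p = 0.0717) and Pprc1, a coactivator related to PGC-1 alpha, 221 and 295 (adjusted p = 0.0618) in the deposited table. Gabpa stood at 591.3 and 590.8 in the deposited table. Myc, a growth regulator, stood at 248 and 444 in the deposited table, with a wide implied standard error of 0.53 on the log2 scale (adjusted p = 0.406).

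**Figure D4:**
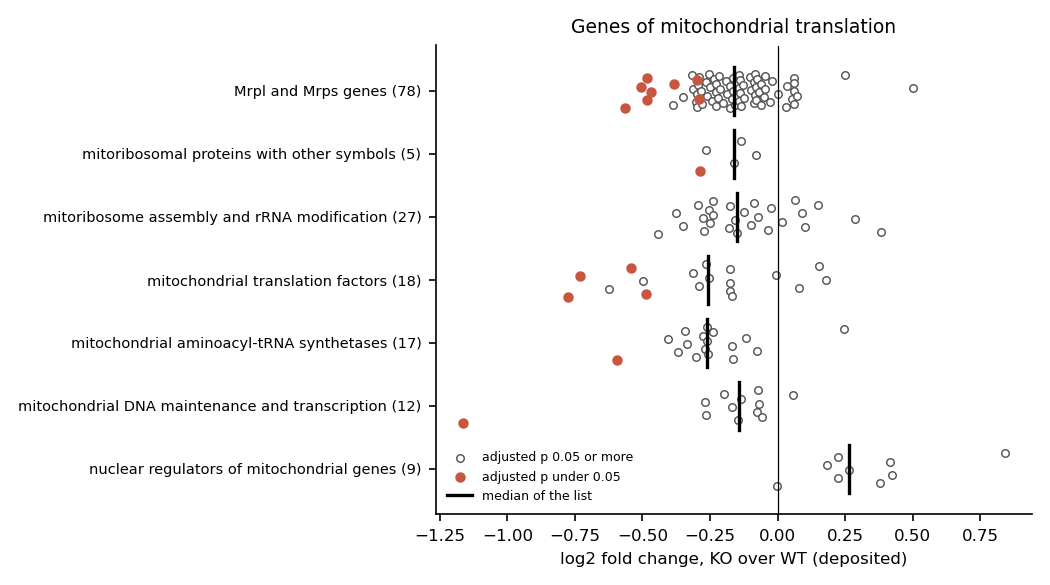
Log2 fold change of KO over WT in the authors' deposited table for the 78 members and 6 lists of related genes; each point is 1 gene, filled where the adjusted p is under 0.05, and the black bar is the median of the list. The medians of the 6 upper lists lie from -0.26 to -0.14, and that of the 9 nuclear regulators lies at 0.27.

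Many mitoribosomal genes lie head to head with a neighbour, with start sites close together on opposite strands. Within 1000 bases, 32 of the 78 members (41.0%) had such a protein-coding partner in the table by GENCODE M21 on GRCm38, against 12.7% of 16352 genes placed. Mrps11 and Mrpl46 are each other's partner, a small and a large subunit gene, with deposited log2 fold changes of -0.18 (241 in WT, 214 in KO) and -0.14 (261 and 237), neither past the threshold (adjusted p = 0.621 and 0.585).

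The 30 partners that are no members lay about evenly on either side of 0. Of these partners 13 lay below 0 and 17 above, and their median log2 fold change was 0.03 as deposited, beside -0.14 for the 32 members with a partner and -0.20 for the 46 without, a difference that was not tested. Across the 30 pairs Spearman's rho of the deposited fold changes was 0.07 and Pearson's r was -0.01, and 12 pairs had the same sign. Among all 1011 other head-to-head pairs, with no limit on level, rho was 0.15. It was 0.27 among the 355 of these with both genes in the level range of the members, a limit not placed on the 30 partners. These are descriptions over genes of the same libraries.

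Of the 30 partners, 4 fell and 0 rose by the authors' adjusted p. The 4 are 13.3% of the partners, beside 5.56% of all genes and 10.3% of the members. The number that fell was 6 over genes with a mean of 10 or more (22.2% of 27 partners, beside 8.17% of all genes). It was also 6 after centring on the median of all genes. With the most abundant genes as reference or the length and level trend removed, 2 fell and 1 rose. These 2 are 6.67% of the partners, beside 3.76% and 4.94% of all genes. Differences between these shares were not tested. Cyb5rl, a reductase-like gene beside Mrpl37, fell from 194 to 118 with adjusted p = 9.5e-05, and Pnpla7, a lysophospholipase gene beside Mrpl41, from 2475 to 1857 (adjusted p = 0.0026) in the deposited table. Ndufs6, a complex I subunit beside Mrpl36, fell from 1088 to 840.5 (adjusted p = 0.0107) and Ptcd2, a pentatricopeptide repeat gene beside Mrps27, from 401 to 305 (adjusted p = 0.0435) in the deposited table. The calls of Ndufs6 and Ptcd2 were lost with the most abundant genes as reference (adjusted p = 0.0652 and 0.14) and with the length and level trend removed (0.092 and 0.145). The highest members had partners on the other side of 0: Mrpl18 lay beside Tcp1, a chaperonin subunit, with 2041 and 1680 (adjusted p = 0.0564), and Mrpl47 beside Ndufb5 (adjusted p = 0.677), in the authors' deposited table. In both pairs the genes share exonic bases on opposite strands. Tcp1 was called lower when p-values were adjusted over genes with a mean of 10 or more (adjusted p = 0.043) and after centring on the median of all genes (adjusted p = 0.0353).

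**Figure D5:**
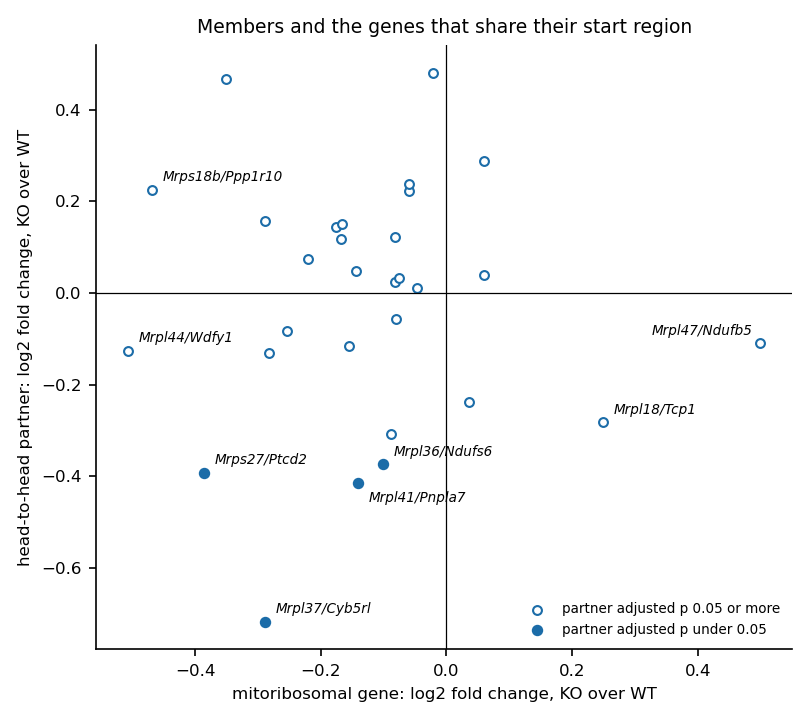
Log2 fold change of the head-to-head partner (vertical) against that of the mitoribosomal gene (horizontal), both KO over WT from the authors' deposited table, for the 30 pairs with 1 member; filled points are partners with an adjusted p under 0.05. The 4 filled partners lie below 0, and Mrpl47 and Mrpl18 lie to the right with partners below 0.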

How the data were processed

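RNA of 4 WT and 4 KO livers was extracted with a Promega kit and sequenced at BGI Genomics, per the labels' protocols. The submitters' processing notes name the build mm10 and DESeq2; for versions, aligner and counting, the sources used here say nothing. The deposited expression columns hold a normalized signal with 1 value per gene and group, and the deposited log2 column equals the log2 of their ratio to within 4.71e-08. The deposited p-value columns are the authors', and their adjusted p matched a Benjamini-Hochberg adjustment over 16640 genes to within 1.74e-06. Whether fold changes were shrunken toward 0, which would understate them, is not known here. The count model or limma planned for single livers could not be fitted to 1 value per group, and calls are the authors' at an adjusted p under 0.05. Nothing says how the livers were sampled beyond genotype, so p-values measure the spread between these samples.

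The implied standard error is the absolute log2 fold change over the normal quantile matching its two-sided p, and assumes a Wald test; 95% intervals are 1.96 times it. Alternatives recomputed p from these values and adjusted them over the whole table. They changed the filter (mean of 10 or more), the centring, the length and level trend (medians of 5 by 10 classes), the threshold and the placing of genes in subunits. The genes and lists were chosen with earlier results of these data known. Genes named are all members that passed, the 6 highest and lowest fold changes, the 5 highest and 3 lowest levels per kilobase, a few members of known role, and genes of each list that passed; genes named beyond these (list members that did not pass, overlapping genes and head-to-head partners) were chosen after their values were seen. Ict1 on the list of other symbols is the member Mrpl58. Overlaps and start sites are from GENCODE M21, coordinates and promoters from RefSeq, both on GRCm38, and all 78 members matched. The tools were matplotlib 3.10.9, scipy 1.17.1, pandas 2.3.3 and numpy 2.4.6 under Python 3.11.15, and the code was tested on simulated data.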

Additional observations from a re-analysis of the deposited data

How the results depend on the processing

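Under the centrings, the filter, the length and level trend and the placing by protein position, all members and either subunit kept medians below 0. These moved by less than 0.13, the median standard error of a single member, which does not measure the error of a median. The members' median ran from -0.18 to -0.08, beside -0.16 as deposited, and large minus small from 0.05 to 0.06. The centrings subtract the same constant from every gene and the filter dropped no member, so large minus small could not change under them. Counts moved more. With the most abundant eighth of genes as reference, or the length and level trend removed, 4 members were lower, all among the 8 called as deposited, and 1, Mrpl47, was higher. These 4 are 5.13% of the members, beside 3.76% of all genes called lower with that reference and 4.94% with the trend removed. With the mean filter 8 were lower and 1 higher, beside 8.17% of all genes called lower. At an adjusted p under 0.1, 9 were lower and 1 higher, and at 0.01, 4 were lower and 0 higher. The shares of all genes at these adjusted thresholds were not counted. At an unadjusted p under 0.05, 20 were lower and 1 higher, beside 10.8% and 9.65% of all genes. Among named genes that did not pass, the log2 fold change of Mrpl52 turned to 0.054 and 0.067 under the same reference and trend settings. With the trend removed that of Mrpl14 turned to 0.0070, of Mrps21 to 0.0064 and of Mrps25 to -0.078. Fewer genes tested lower the adjusted p under the filter; for the other changes the cause was not tested. No paired analysis was possible because the files used here hold 1 value per gene and group, and for the same reason leaving out a liver, DESeq2 and edgeR were not run. Counting error and the spread between livers cannot be told apart in these values.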
